A study of Mus musculus with 6 samples.

Results

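The nuclear genes for the subunits of oxidative phosphorylation, with the assembly factors that carry the same name stems, were described in mouse liver after 3 days of liraglutide. Members were all rows of the count table whose symbol begins with Nduf, Uqcr, Atp5 or Cox followed by a digit from 4 to 8, together with Sdha, Sdhb, Sdhc and Sdhd. This rule found 92 of 23412 symbols. Of these, 86 had at least 10 counts over the 6 libraries, and all 86 also passed the filter on low counts applied before testing. Both groups were livers of C57BL/6J mice, given an age of 8 weeks in the labels and kept on a high-fat diet for 4 weeks. The treated group (HFD_Lira3d, 3 libraries) then received liraglutide, an agonist of the GLP-1 receptor, under the skin at 300 ug/kg for 3 days, and the control group (HFD_PBS3d, 3 libraries) received phosphate-buffered saline (PBS). The high-fat diet was shared by both groups, so no value below speaks of the diet. The labels do not say whether the 3 libraries of a group came from separate mice, so a p-value here is set only by how far these libraries scatter, and that scatter may be technical.

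Oxidative phosphorylation takes place in the inner mitochondrial membrane. Complex I oxidises NADH and complex II oxidises succinate. Both pass electrons to ubiquinone, from which complex III passes them to cytochrome c, and complex IV hands them to oxygen. Complexes I, III and IV move protons across the membrane, and complex V, the ATP synthase, uses the returning protons to make ATP. A few subunits are encoded in mitochondrial DNA and are not among the members. All others are made from nuclear transcripts and imported, and assembly factors join the parts without staying in the finished enzyme. Liver depends on this chain for fatty acid oxidation, gluconeogenesis and urea synthesis.

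Libraries are called here by the numbers of their columns in the count table, Lira161, Lira162 and Lira164 for liraglutide and PBS155, PBS157 and PBS158 for PBS. They held 20888991 to 27007182 counts. Levels are given as CPM, in which each library is brought to the same total after scaling by TMM, the trimmed mean method of edgeR. Summed hepatocyte markers (Alb, Ttr, Apoa1, Cps1, Serpina1a, Tat) stood at 66746 to 98329 CPM in all 6 libraries. One control library stood apart from the other PBS libraries. PBS155 had the lowest level of the 3 PBS libraries for 82 of the 86 tested members (95.3%), against 37.6% of all 12626 tested genes. Among the 997 other tested genes with transcripts under 1000 bases it was lowest for 68.4%, and 52 members are as short. For transcripts of at least 1000 bases it was lowest for 94.1% of 34 members and 34.4% of 11448 other genes. PBS155 also had the highest summed macrophage markers of any library, 293 CPM against 116 in PBS157 and 70.1 in PBS158. Under liraglutide they summed to 161.4 to 268 CPM, so this set PBS155 apart from the other PBS libraries only. The number of members called and the median of each complex below are therefore also given without PBS155, beside the lowest and highest value over the 6 fits that leave out 1 library. PBS155 was singled out by its low levels of the members, so leaving it out lowers most of their estimates in itself. Calls gained without PBS155 are therefore not separate evidence.

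Only 1 of the 86 members passed the test, the complex I assembly factor Ndufaf1, which was lower under liraglutide. No member was called higher by edgeR's quasi-likelihood test at a Benjamini-Hochberg adjusted p under 0.05, none was higher at an unadjusted p under 0.05, and DESeq2 called none higher either. Over all 12626 tested genes, 8.77% were called, 4.69% lower and 4.08% higher, so that 46.5% of calls were higher (57.2% with scaling by library totals). The estimates were small and mostly of 1 sign: 73 of 86 log2 fold changes (84.9%) were negative, against 48.4% of all tested genes. Their median was -0.12, with quartiles of -0.21 and -0.06, where the median of all tested genes was 0.01.

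At an unadjusted p under 0.05, 17 of 86 members (19.8%) were lower, against 13.1% of all tested genes. The liraglutide and PBS libraries did not overlap for 12 members, all with liraglutide below, where 16.4% of all tested genes were separated in that direction and 14.9% in the other. The 95% interval of the fold change lay within 1.5-fold in either direction for 75 members. DESeq2 called 2 members lower, Ndufaf1 and Sdha, where 6.63% of the genes to which it gave an adjusted p were called lower. Without PBS155, the quasi-likelihood test called 5 members lower (Ndufaf1, Ndufb3, Cox7b, Cox6c and Sdhb), where 3.74% of all genes were called lower in the same fit. There 80 of 86 estimates were negative and the median was -0.24. Without PBS158 the test called none, 59 of 86 were negative and the median was -0.06. It also called none without Lira161, Lira162 or PBS157. Over the 15 alternatives to the main fit, the log2 fold changes smallest in size were -0.31 for Ndufb3, -0.28 for Cox7b, -0.22 for Cox6c and -0.25 for Sdhb.

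**Figure D1:**
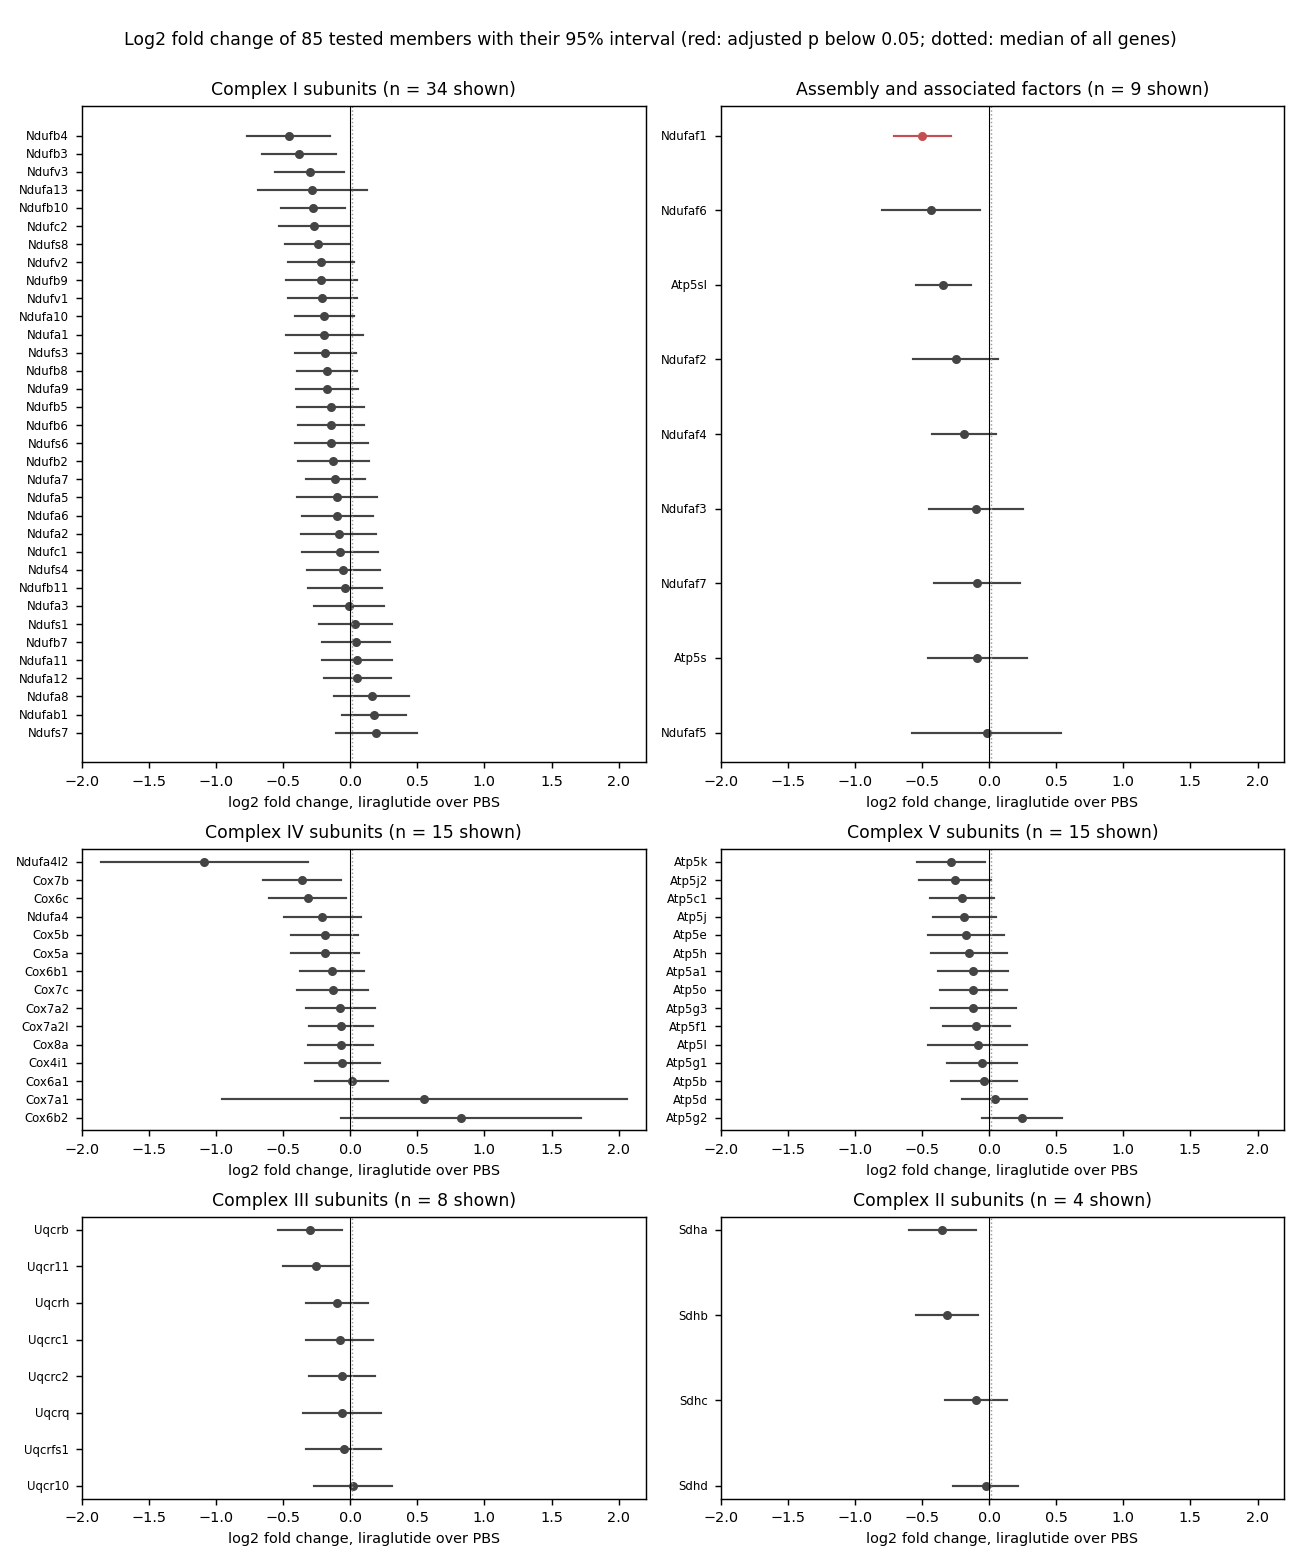
Log2 fold change (x axis, liraglutide over PBS, 3 libraries each) of 85 tested members with its 95% interval, in panels by complex; the dotted line is the median of all tested genes, 0.01. Most points lie left of 0 with intervals that cross it, and Ndufaf1, in red, is the member that passed the test.

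The median of the members in each library showed how far the groups were mixed. Relative to the mean of the PBS libraries, the median log2 level of the 86 members was -0.07 in Lira161, -0.11 in Lira162 and -0.21 in Lira164, and it was -0.19 in PBS155, 0.04 in PBS157 and 0.13 in PBS158. PBS155 thus lay among the liraglutide libraries, while PBS157 and PBS158 lay above all 3 of them. As a share of all counts, the 92 members took 1.03% ± 0.016 (SD, n = 3) under liraglutide and 1.09% ± 0.079 (SD, n = 3) under PBS, and PBS155 had the lowest share of the 6 libraries, 0.998%.

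Other measures also differed between the libraries. Most members have short transcripts, and the 997 other tested genes with transcripts under 1000 bases had medians of 0.08, -0.05 and -0.11 in Lira161, Lira162 and Lira164, and of -0.14, 0.07 and 0.07 in PBS155, PBS157 and PBS158. Their median log2 fold change was -0.04. Among the members, the 52 with transcripts under 1000 bases had a median log2 fold change of -0.12, with 41 negative. The 34 members with longer transcripts had a median of -0.11, with 32 negative. With the trend of level on transcript length removed from each library, the median of the members was -0.09, with 69 of 86 negative, and 3 members were called lower (Ndufaf1, Ndufb3 and Atp5sl), where 5.83% of all genes were called lower under the same setting. Summed markers of sinusoidal endothelium (Stab2, Clec4g, Oit3, Lyve1, Kdr, Fcgr2b) were 176, 217 and 272 CPM under liraglutide, and 194, 117 and 106 CPM in PBS155, PBS157 and PBS158. Of these 6 markers 1 was called higher, Clec4g, at a log2 fold change of 0.78. Macrophage markers (Clec4f, Cd5l, Vsig4, Timd4, Marco, Emr1) summed to 268, 161.4 and 251 CPM under liraglutide, with none of the 6 called. Stellate cell markers (Lrat, Reln, Dcn, Colec11, Hgf, Des) summed to 331, 362 and 377 CPM under liraglutide and to 311, 317 and 194 CPM under PBS, with none of the 6 called. The part of transcript length or of these cell types in the members' levels was not tested. In bulk liver, fewer cells of a type and less RNA per cell cannot be told apart.

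**Figure D2:**
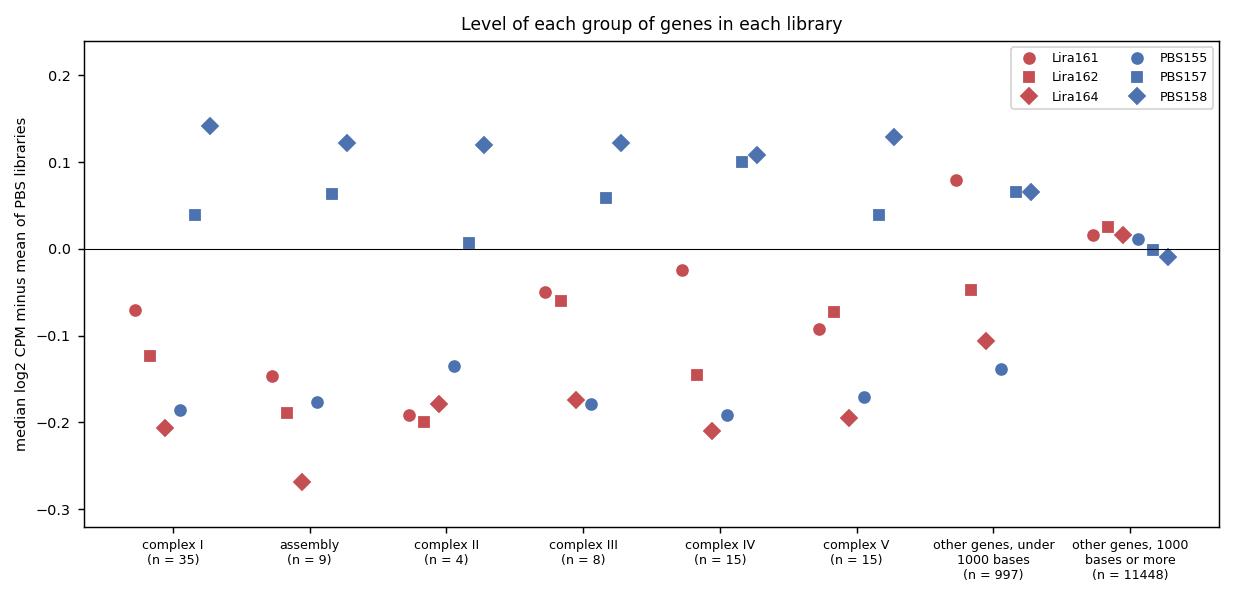
Median log2 CPM of the tested members of each complex, and of other tested genes by transcript length, in each library (y axis, difference from the mean of the PBS libraries; red, liraglutide; blue, PBS). PBS155 (blue circles) lies among the liraglutide libraries in complexes I, IV and V and the assembly factors, just below them in complex III, and between them and the other PBS libraries in complex II.

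The called member was an assembly factor. All 9 assembly and associated factors tested had negative estimates, with a median log2 fold change of -0.19. Leaving out single libraries gave -0.28 (without Lira162) to -0.13 (without PBS158), and -0.25 without PBS155. Ndufaf1, which takes part in building the membrane arm of complex I, stood at 20.8, 21.5 and 22.0 CPM in Lira161, Lira162 and Lira164 and at 28.0, 30.8 and 31.8 CPM in PBS155, PBS157 and PBS158. The groups did not overlap, and the level was 21.4 ± 0.587 CPM (SD, n = 3) against 30.2 ± 1.97 CPM (SD, n = 3). The log2 fold change was -0.50 ± 0.09 (SE; 95% interval -0.71 to -0.28), a 1.41-fold lower level, with an adjusted p of 0.0151 by edgeR's quasi-likelihood test. This is the largest distance between the groups, relative to its error, among the members.

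Ndufaf1 lies on the minus strand at chr2:119655446-119662827 (mm10). Its call was kept without PBS155 (log2 fold change -0.56, adjusted p = 0.0177 by edgeR's quasi-likelihood test) and without Lira164. Leaving out any 1 of the remaining libraries (Lira161, Lira162, PBS157, PBS158) ended the call, at adjusted p values of 0.0525 to 0.0644 by the same test and log2 fold changes of -0.46 to -0.51. The sequence around its start is shown because it is the called member. It runs from 100 bases before the RefSeq start to 30 bases from the start on, in GRCm38.p6 at chr2:119662805-119662934 on the minus strand, and its capitals mark a match to CCGGAAG, the core letters bound by ETS factors such as GABPA, which begins 18 bases before the start:
Ndufaf1: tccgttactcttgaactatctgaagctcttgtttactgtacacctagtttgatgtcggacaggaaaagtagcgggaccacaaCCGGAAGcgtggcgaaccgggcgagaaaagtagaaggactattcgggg

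Among the other assembly factors, Atp5sl came closest to the threshold. The symbol is an older name of Dmac2, a factor of the membrane arm of complex I that is not an ATP synthase subunit, at chr7:25619414-25625551. Its level was 31.2, 33.05 and 34.2 CPM under liraglutide and 39.4, 41.2 and 44.4 CPM under PBS. The groups did not overlap, and the log2 fold change was -0.34 ± 0.09 (SE), with an adjusted p of 0.0506 by edgeR's quasi-likelihood test. Ndufaf6 stood at 6.03, 6.83 and 7.50 CPM under liraglutide and at 7.66, 9.55 and 10.4 CPM under PBS, a log2 fold change of -0.44 that did not pass the test (adjusted p = 0.129, edgeR's quasi-likelihood test). Ndufaf2 was likewise separated between the groups, at -0.25. Ndufaf3, Ndufaf4, Ndufaf5 and Ndufaf7 overlapped between the groups, with log2 fold changes from -0.19 to -0.02. Atp5s, coupling factor B of the ATP synthase, was at -0.09.

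Complex I is the largest enzyme of the chain, and 35 of its nuclear subunits were tested. None was called, 28 of 35 estimates were negative, and the median log2 fold change was -0.14. It ran from -0.25 without PBS155 to -0.06 without PBS158. The 7 redox core subunits, which carry the flavin and the iron-sulfur clusters or form the quinone site, had a median of -0.19, and the 28 supernumerary subunits, which surround the core, a median of -0.13. Ndufv1, the flavin subunit that takes the electrons of NADH, stood at 126, 137 and 118 CPM under liraglutide and at 135, 138 and 167 CPM under PBS. The groups overlapped, and the log2 fold change was -0.21 (95% interval -0.47 to 0.05). Ndufs1, the largest core subunit, was at 0.04 and Ndufs3 at -0.19, both with overlapping groups.

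The lowest estimate in complex I was that of Ndufb4, a supernumerary subunit of the membrane arm. It stood at 8.25, 8.49 and 7.50 CPM under liraglutide and at 10.3, 10.4 and 12.7 CPM under PBS. The groups did not overlap, and the log2 fold change was -0.46 ± 0.14 (SE), with an adjusted p of 0.0713 by edgeR's quasi-likelihood test. Ndufb3, another supernumerary subunit of the membrane arm, stood at 57.8, 49.3 and 49.4 CPM under liraglutide and at 57.3, 74.3 and 72.4 CPM under PBS. Here only PBS155 overlapped the liraglutide libraries. The log2 fold change was -0.38 ± 0.12 (SE; adjusted p = 0.0853, edgeR's quasi-likelihood test), and without PBS155 it was -0.51 and passed the test at an adjusted p of 0.0266. At the other end, the core subunit Ndufs7 had a log2 fold change of 0.19 (adjusted p = 0.399, edgeR's quasi-likelihood test), with 66.3, 59.6 and 53.3 CPM against 42.8, 56.9 and 57.0 CPM. Its groups overlapped and PBS155 was again the lowest. Ndufs5, a supernumerary subunit, was listed at 0 in all 6 libraries. No source used here gives the counting tool or its treatment of shared reads, so this 0 cannot be read as absent expression.

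Complex II has 4 subunits, all nuclear, and none was called. Their median log2 fold change was -0.20, and it ran from -0.26 without PBS155 to -0.14 without PBS158. The catalytic pair Sdha, with the flavin, and Sdhb, with the iron-sulfur clusters, were separated between the groups, and the membrane anchors Sdhc and Sdhd were not. Sdha (chr13:74322254-74350280) stood at 355, 381 and 410 CPM in Lira161, Lira162 and Lira164 and at 494, 450 and 514 CPM in PBS155, PBS157 and PBS158. All 3 liraglutide libraries lay below all 3 PBS libraries, and PBS155 was not the lowest PBS library. The log2 fold change was -0.35 ± 0.11 (SE), short of the threshold at an adjusted p of 0.0832 by edgeR's quasi-likelihood test and past it at 0.0296 by DESeq2.

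Sdhb (chr4:140961203-140979193) stood at 135, 131 and 133 CPM under liraglutide and at 147, 169 and 179 CPM under PBS. The liraglutide libraries were close together and below every PBS library. The log2 fold change was -0.31 ± 0.10 (SE; adjusted p = 0.0914, edgeR's quasi-likelihood test), and without PBS155 it was -0.40 and passed the test at an adjusted p of 0.0466. Sdhc was at -0.10 and Sdhd at -0.03, with overlapping groups. Whether the catalytic and the anchor subunits differ in their fold change was not tested. The start of Sdhb is shown because it also holds CCGGAAG, here 6 bases after the start (GRCm38.p6, chr4:140961171-140961300, plus strand, the same window as for Ndufaf1, capitals on the match):
Sdhb: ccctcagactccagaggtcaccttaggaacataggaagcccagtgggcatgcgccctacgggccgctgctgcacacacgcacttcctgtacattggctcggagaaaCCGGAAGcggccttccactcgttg

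**Figure D3:**
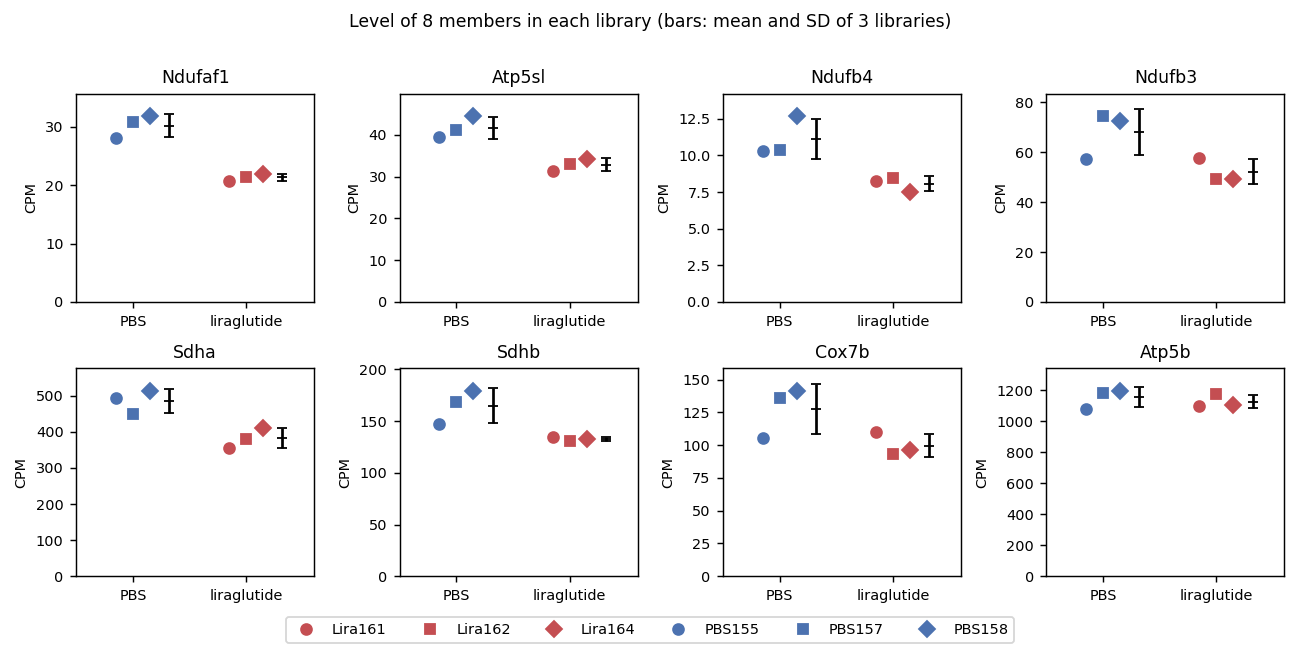
CPM (y axis, from 0) of 8 members in each library, with the mean and SD of the 3 libraries of each group beside the points. Ndufaf1, Atp5sl, Ndufb4, Sdha and Sdhb are separated between the groups; in Ndufb3 and Cox7b only PBS155 overlaps the liraglutide libraries, and in Atp5b the groups overlap.

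In complex III, 8 nuclear subunits were tested and none was called. The median log2 fold change was -0.07, and it was -0.17 without PBS155 and 0.01 without PBS158. The Rieske iron-sulfur protein Uqcrfs1 was at -0.05 and the core protein Uqcrc1 at -0.08, both with overlapping groups. Uqcrb, the subunit that binds ubiquinone beside cytochrome b, stood at 105, 91.3 and 97.2 CPM under liraglutide and at 107, 126 and 129 CPM under PBS. These groups were just separated, and the log2 fold change was -0.30 (adjusted p = 0.113, edgeR's quasi-likelihood test). Uqcr10, a small subunit next to cytochrome c1, had the highest estimate of the complex, 0.02.

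In complex IV, 15 members were tested and none was called, with a median log2 fold change of -0.13. The median ran from -0.22 without PBS155 to -0.05 without PBS157. Among the main subunits, Cox7b stood lowest. It was at 110, 93.1 and 96.3 CPM under liraglutide and at 106, 136 and 142 CPM under PBS, so that PBS155 overlapped the liraglutide libraries. The log2 fold change was -0.36 (adjusted p = 0.117, edgeR's quasi-likelihood test), and it was -0.49 without PBS155, where it passed the test at an adjusted p of 0.0323. Cox6c was at -0.32 with all libraries (adjusted p = 0.158) and at -0.44 without PBS155 (adjusted p = 0.0499), both by edgeR's quasi-likelihood test. Cox4i1, which with Cox5a takes part in regulating the enzyme, was at -0.06, Cox5a at -0.19 and Cox6a1 at 0.01, all with overlapping groups.

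Complex IV also has isoforms that belong to muscle, lung, testis or cells short of oxygen, and these stood low in liver. Cox6b2, Cox7a1 and Ndufa4l2 had enough counts to be tested, at mean levels of 1.01, 0.596 and 0.770 CPM. The other isoforms were near the limit of detection. Cox7b2 and Cox8c, isoforms of testis, had 0 counts in all 6 libraries. The muscle isoform Cox6a2 had 3 counts in all, the muscle isoform Cox8b 4 and the lung isoform Cox4i2 9. A count of 0 allows up to 3 counts, or 0.110 to 0.145 CPM depending on the library. Per kilobase of transcript, Cox6b1 stood 147 times above Cox6b2, Cox7a2 stood 106 times above Cox7a1 and Ndufa4 stood 604 times above Ndufa4l2. Skeletal and heart muscle markers summed to 0.625 to 1.54 CPM under liraglutide and 0.366 to 0.942 CPM under PBS, with Ckm, Myh4 and Myh6 at 0 in all libraries.

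Ndufa4l2, the partner of Ndufa4 known for its rise under low oxygen, had the lowest estimate of all members. It had 8, 15 and 12 counts in Lira161, Lira162 and Lira164 and 25, 31 and 19 counts in PBS155, PBS157 and PBS158. The groups did not overlap, but the log2 fold change of -1.09 ± 0.34 (SE) did not pass the test (adjusted p = 0.0821, edgeR's quasi-likelihood test). Cox6b2, the testis isoform, had the highest estimate, 0.82 ± 0.40 (SE), with an adjusted p of 0.23 by the same test and overlapping groups. Cox7a1, the heart and muscle isoform, ranged from 1 to 26 counts, and its 95% interval ran from -0.96 to 2.06. Cox7a2l, which takes part in joining complexes III and IV, was at 82.2, 80.4 and 77.3 CPM against 75.1, 95.4 and 81.6 CPM, a log2 fold change of -0.07.

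Complex V had 15 tested members, none called and none separated between the groups, with a median log2 fold change of -0.12, which ran from -0.24 without PBS155 to -0.04 without PBS158. Atp5b, the catalytic beta subunit, was the most abundant member in CPM, at 1123 ± 41.9 (SD, n = 3) under liraglutide and 1152 ± 64.8 (SD, n = 3) under PBS. Its log2 fold change was -0.04, with a 95% interval of -0.28 to 0.21. Atp5a1, the alpha subunit, was at 907 ± 44.9 CPM (SD, n = 3) against 986 ± 81.3 CPM (SD, n = 3), a log2 fold change of -0.12. The lowest estimate was that of Atp5k, the small membrane subunit e, at -0.28 (adjusted p = 0.153), and the highest that of Atp5g2, at 0.25 (adjusted p = 0.278), both by edgeR's quasi-likelihood test. The 5 members of the F1 part and the 10 of the membrane and peripheral stalk part both had a median of -0.12.

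Atp5g1, Atp5g2 and Atp5g3 encode the same mature c subunit of the rotor ring with different import signals. Their levels were 62.4, 16.6 and 345 CPM under liraglutide and 64.7, 14.0 and 374 CPM under PBS. Per kilobase, Atp5g3 made up 90.9% of the sum of the 3, or 78.1% when the shortest annotated transcript of each gene sets its length, because Atp5g1 is annotated at 596 to 4715 bases. The log2 fold changes of Atp5g1 and Atp5g3 were -0.05 and -0.12, and all 3 genes had overlapping groups.

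Levels differed widely within a complex. As the mean over 6 libraries of CPM per kilobase, using the median length of the annotated coding transcripts, the median member stood at 79.9 in complex I, 139 in complex II, 189 in complex III, 145 in complex IV, 188 in complex V and 7.51 among assembly factors. In complex I the values ran from 9.88 for Ndufb4 to 294 for Ndufa6, and in complex II from 85.2 for Sdhc to 150 for Sdha. In complex III they ran from 128 for Uqcrc2 to 494 for Uqcrq. Complex IV reached 498 with Ndufa4, and complex V ran from 23.8 for Atp5g1 to 594 for Atp5b. The assembly factors ran from 2.53 for Ndufaf5 to 19.3 for Atp5sl. For 9 of the 86 members the longest annotated transcript is over 2 times the shortest, so their place in the order is uncertain: Sdhc would stand at 53.5 to 208 and Uqcrq at 163.6 to 615.

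**Figure D4:**
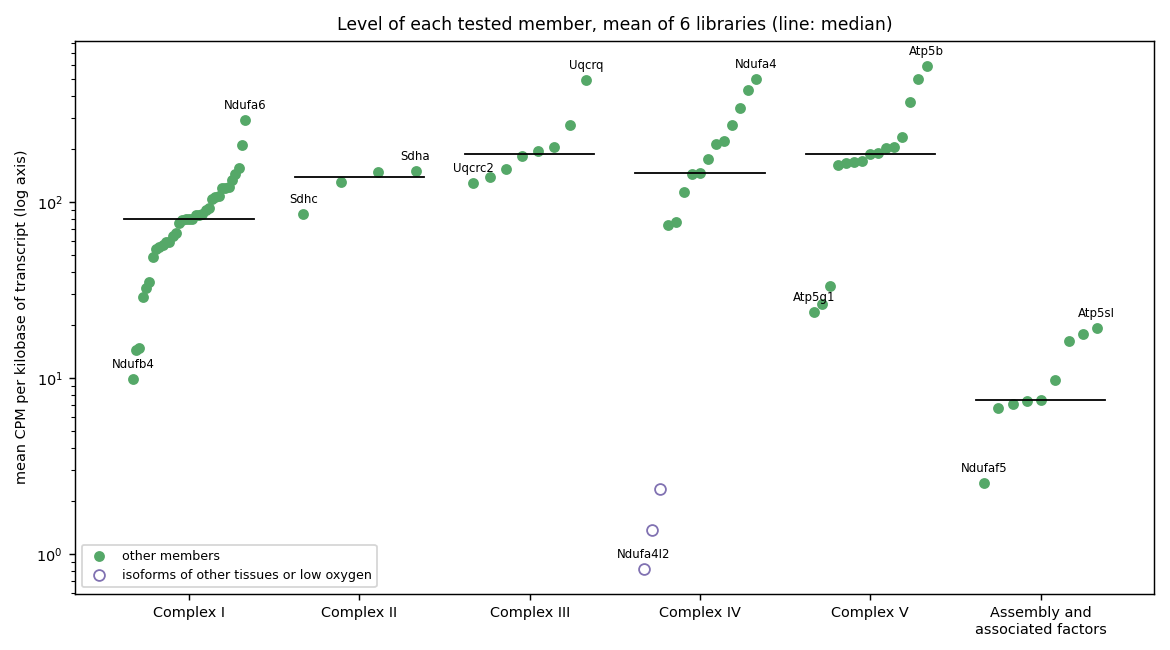
Mean CPM per kilobase of transcript over 6 libraries (y axis, log scale) for the 86 tested members, sorted within each complex, with lines at the medians. Assembly factors lie at 2.53 to 19.3, and the 3 open circles of complex IV are Ndufa4l2, Cox7a1 and Cox6b2.

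Of genes around the chain, 4 passed the test. Lists of assembly factors with other names, cytochrome c, regulators of respiratory genes, other dehydrogenases that feed ubiquinone, the tricarboxylic acid cycle and carriers held 93 genes, of which 90 were found and 86 tested. The quasi-likelihood test called 3 higher and 1 lower, a share below the 8.77% of all tested genes. Gpd2, the mitochondrial glycerol-3-phosphate dehydrogenase, which feeds electrons to ubiquinone beside complexes I and II, stood at 96.3, 100.03 and 104 CPM under liraglutide and at 62.0, 62.1 and 52.6 CPM under PBS. The groups were far apart, and Gpd2 rose by 0.76 ± 0.10 (SE) on the log2 scale, with an adjusted p of 0.00457 by edgeR's quasi-likelihood test. Its call held in every alternative tried.

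Fh1, fumarate hydratase of the tricarboxylic acid cycle, stood at 292, 324 and 249 CPM under liraglutide and at 169, 220 and 199 CPM under PBS. It rose by 0.56 on the log2 scale (adjusted p = 0.0367, edgeR's quasi-likelihood test). Ucp2, an inner membrane carrier of the uncoupling protein family, stood at 65.1, 62.9 and 53.3 CPM against 34.6, 41.0 and 25.01 CPM and rose by 0.85 (adjusted p = 0.0219, same test). Ucp2 is also expressed in macrophages, whose markers are given above, and their part in its level was not tested. Sqrdl, which oxidises sulfide and feeds ubiquinone, stood at 76.0, 73.1 and 94.1 CPM against 125, 117 and 157.2 CPM and fell by 0.71 (adjusted p = 0.0173, same test). None of these 4 genes overlapped between the groups. Fh1, Ucp2 and Sqrdl each lost the call when some single libraries were left out: Fh1 and Ucp2 without Lira161, Lira162 or PBS155, Fh1 also without PBS158, and Sqrdl without Lira161, Lira162 or PBS158.

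The closest partners of the members were not called. In the other complex I assembly factors 0 of 8 were called, with a median log2 fold change of -0.14 and the smallest p for Ecsit, at -0.28. In complex II assembly 0 of 3 were called, with a median of -0.06 and the smallest p for Sdhaf2, at -0.23. In the list of complex III 0 of 6 were called, with a median of -0.18. There Ttc19, of the smallest p, was at -0.27 and the cytochrome c1 gene Cyc1 at -0.08. Cytochrome c and complex IV assembly had 0 of 22 called, with a median of -0.03. Here Cox18, an inserter of membrane proteins, had the smallest p, at -0.45, and cytochrome c itself, Cycs, was at 0.28. Complex V assembly had 0 of 5, with a median of -0.12. Tmem70, of the smallest p, was at -0.17 and Atpif1, the inhibitor of the ATP synthase, at -0.02.

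Regulators of respiratory genes had 0 of 19 called and a median log2 fold change of 0.04. Polg2, the accessory subunit of the mitochondrial DNA polymerase, was at -0.53 with separated groups (adjusted p = 0.0674, edgeR's quasi-likelihood test). Ppargc1a, the coactivator PGC-1alpha known for driving respiratory gene transcription, stood at 22.3, 30.2 and 11.8 CPM under liraglutide and at 14.2, 13.6 and 14.6 CPM under PBS. Lira161 and Lira162 lay above and Lira164 below all PBS libraries. With all libraries the log2 fold change was 0.60 (adjusted p = 0.287, edgeR's quasi-likelihood test), and without Lira164 it was 0.89 with an adjusted p of 0.00495. Without Lira162 it was 0.26, with an adjusted p of 0.637 by the same test, so single libraries set both its size and its call. In the same 3 liraglutide libraries the median level of the members relative to PBS was -0.07, -0.11 and -0.21. In PBS155, PBS157 and PBS158 this median was -0.19, 0.04 and 0.13. Whether the levels of the members go with that of Ppargc1a was not tested.

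**Figure D5:**
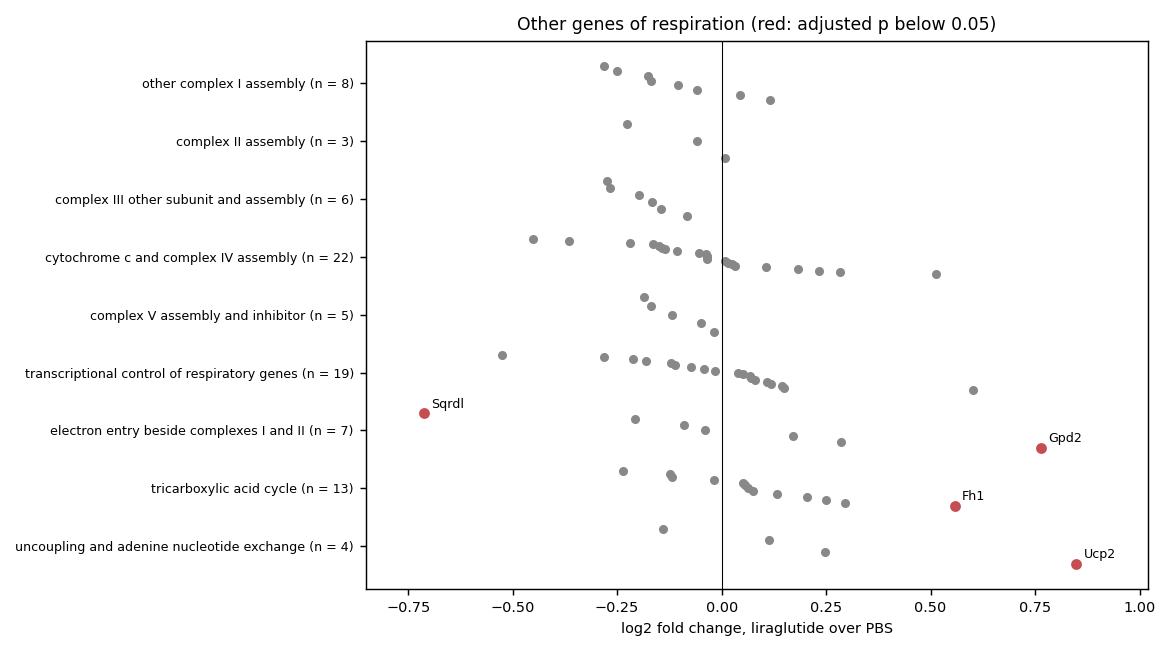
Log2 fold change (x axis, liraglutide over PBS) of each tested gene in 9 lists of genes around the respiratory chain; Tmem70 stands in 2 lists. The 4 red points passed the test: Gpd2, Fh1 and Ucp2 to the right of 0 and Sqrdl to the left.

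Promoters from RefSeq, 250 bases before to 50 bases from the start on, were matched for 73 of the 86 tested members and searched on both strands for letters of 4 factors known to act on respiratory genes. CCGGAAG (ETS, for GABPA) stood in 17 of 73 members (23.3%), against 19.6% of tested genes and 9.93% of all genes with a promoter in the table. AAGATGGC (YY1) stood in 11 (15.1%, against 5.20% of tested genes), the palindromic NRF1 motif in 7 (9.59%, against 2.29%) and TCAAGGTCA (ERR) in 2 (2.74%, against 0.318%). A match is not a bound site. The members with CCGGAAG had a median log2 fold change of -0.15 and those without -0.11. With AAGATGGC the median was -0.14 and without it -0.12, and with TCAAGGTCA it was -0.07 over 2 members and without it -0.13. With the NRF1 motif the median was -0.02 over its 7 members, Atp5g2, Atp5k, Cox6a1, Ndufa11, Ndufaf4, Ndufaf5 and Uqcrc1, and -0.13 without. These 7 ran from -0.28 for Atp5k to 0.25 for Atp5g2, and no difference by motif was tested.

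Atp5j, coupling factor 6 of the ATP synthase, holds 2 of these motifs close together and its annotated exons overlap 397 bases of Gabpa on the opposite strand, a gene that itself encodes the ETS factor. A start of Atp5j is shown for that reason. RefSeq lists 2 starts for this gene, and the start shown was picked by the number of these motifs it holds (GRCm38.p6, chr16:84834947-84835076, minus strand, the same window, with capitals on AAGATGGC, 88 bases before the start, and CCGGAAG, 61 bases before it):
Atp5j: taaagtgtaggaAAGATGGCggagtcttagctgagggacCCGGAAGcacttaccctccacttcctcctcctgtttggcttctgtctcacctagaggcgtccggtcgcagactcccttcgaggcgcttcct
Atp5j stood at 137, 131 and 128 CPM under liraglutide and at 133, 153 and 163 CPM under PBS, a log2 fold change of -0.18 with overlapping groups. No source used here says whether strand was used in counting, and reads of the shared stretch cannot be told apart between Atp5j and Gabpa.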

How the data were processed

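RNA from frozen mouse liver was sequenced in 6 libraries, and the authors deposited raw read counts per gene symbol. Reads were aligned with STAR to mm10, per the submitters' processing notes; no source used here gives the counting tool, annotation or strand setting, nor the treatment of reads shared with near-identical copies (the annotation names such copies for Atp5c1, Uqcrh, Atp5k, Ndufab1 and Atp5l). Column names match a group but no triplicate number. From the counts, genes passing filterByExpr (12626) were tested with edgeR 4.0.16 in R 4.3.3: TMM factors, robust dispersions, quasi-likelihood test of liraglutide against PBS over all 6 libraries, two-sided, Benjamini-Hochberg over all genes tested, threshold 0.05. The script was tested on simulated data. DESeq2 1.42.0 and limma 3.58.1 (voom) were alternatives, beside other scalings and filters, removal of the 10 most abundant genes, a length trend as offsets, and each library left out. Log2 levels in single libraries used a prior count of 2. Coordinates and lengths are from GENCODE M21 (GRCm38), which matched all 92 members and 23033 symbols. Figures used Python 3.11.15 and matplotlib 3.10.9.

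Named are the called members, the highest and lowest estimate in each complex and among assembly factors at a mean CPM of at least 5, the catalytic core, isoform families, the extremes per kilobase and, from other lists, called genes or the smallest p with Ppargc1a, Cycs, Cyc1 and Atpif1; Atp5sl, Ndufb3, Cox6c, Ndufaf2 and Atp5j were chosen after their values were seen. One of the genes this rule names is not reported here. Members and lists were chosen with earlier results of these data known. Marker lists not described in the results gave Spp1 lower among 5 cholangiocyte genes (summed 26.5 to 28.6 CPM under liraglutide, 41.9 to 50.8 under PBS), Alas2 lower among 5 erythroid genes (17.8 to 40.0, 77.6 to 91.1), and no call for lymphocytes (2.71 to 3.51, 1.87 to 2.93), neutrophils (2.12 to 2.85, 1.39 to 3.55), muscle, hepatocytes or adipocytes (0.193 to 0.458, 0.599 to 2.05).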

Additional observations from a re-analysis of the deposited data

How the results depend on the processing

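Of the alternatives, none turned the sign of a called result. The count of members called lower, 1 with the settings of the report, was 2 at a mean CPM of at least 5 and with the 10 most abundant genes removed (Atp5sl added in both), 2 with DESeq2 (Sdha added), 3 with the length trend removed, and 0 to 5 with single libraries left out; lower calls over all genes were 5.56%, 5.03%, 6.63% and 5.83% in the first 4 of these settings, against 4.69%; 0 members were called higher in every alternative. Other genes of respiration called lower numbered 2 with the length trend removed (Polg2 added) and 0 to 2 with single libraries left out, against 1, and those called higher 1 to 5, against 3. Over all genes, leaving out single libraries gave 1.27% to 5.42% higher and 1.82% to 6.27% lower, against 4.08% and 4.69%. Scaling by library totals moved the median of all genes from 0.01 to 0.06 and the share of calls that were higher from 46.5% to 57.2%; there the members' median was -0.07 with 65 of 86 negative. The median of complex III was positive, 0.01, only without PBS158. No paired analysis was possible because the columns carry no triplicate numbers. Members with few counts (4 tested members under a mean of 5 CPM) have wide intervals, and 11 of 86 members have an interval that passes a 1.5-fold change, so a change of that size could not be bounded for them at this depth.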
